A study of Mus musculus with 8 samples.

Results

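Kupffer cells of transgenic (TG) mice were compared with those of wild-type (WT) mice across all genes. This comparison uses 4 of the 8 libraries of the study, 2 of each genotype, chosen by their titles, and every one of the 24786 gene symbols in the files, of which 15254 passed the filter on low counts. The other 4 libraries are monocyte-derived macrophages (MoM) of the same genotypes. They enter the filter, the scaling and the estimate of spread, and their levels are also described apart from the Kupffer libraries. All mice were C57BL/6. The TG mice carry dnTGF[beta]RII, a dominant-negative form of TGF-β receptor II, which in the mouse line of that name is driven by a Cd4 promoter and acts in T cells, so that the macrophages themselves are not the cells targeted. The study treats these mice as a model of cholangitis. Polyadenylated RNA was extracted from liver macrophages frozen on dry ice. The labels used here give no age, sex or sorting gate, and whether the replicates are different animals is not stated in them, so every p-value measures the spread between these libraries, which may be technical.

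Kupffer cells are the resident macrophages of the liver sinusoids, where they capture particles and microbes from the blood and recycle iron from old red cells. They carry a set of genes of their own, among them the lectin Clec4f and the receptors Vsig4 and Timd4. Interferon gamma, made by T cells and NK cells, acts on macrophages through its surface receptor and induces the transcription factor Irf1, guanylate-binding proteins, immunity-related GTPases and, through the transactivator Ciita, the genes of MHC class II.

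Library totals ranged from 26503740 to 29419143 counts over the 4 Kupffer libraries, with 15366 to 17122 genes detected. Levels are given as CPM, the counts of a gene in a library divided by its total scaled with edgeR's TMM factors, so that 1 count is worth 0.0359 to 0.0378 CPM. TG replicate 2 stood apart from the other 3. Its Spearman correlation across genes was 0.895 with TG replicate 1, against 0.985 between the WT libraries, 0.984 between TG replicate 1 and WT replicate 1, and 0.954 between TG replicate 2 and WT MoM replicate 1 (genes are not independent replicates, and no p is given). The 25 endothelial markers summed to 17716 CPM in TG replicate 2, against 2036 CPM in TG replicate 1 and 2153 and 2819 CPM in WT. None of them was below 1 CPM in TG replicate 2. Erythroid markers summed to 3822 CPM there, against 356 to 1189 CPM in the others. In the same library the 15 pan-macrophage markers summed to 22138 CPM, against 37044 CPM in TG replicate 1 and 37904 and 38767 CPM in WT, and all 15 lay below both WT libraries, as did 39.5% of all genes tested. In bulk RNA, fewer cells of a type and less RNA per cell cannot be told apart. Kdr, the VEGF receptor of endothelial cells, shows the same split, with 17.8 CPM in TG replicate 1, 1108 CPM in TG replicate 2 and 17.0 and 60.7 CPM in WT.

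**Figure D1:**
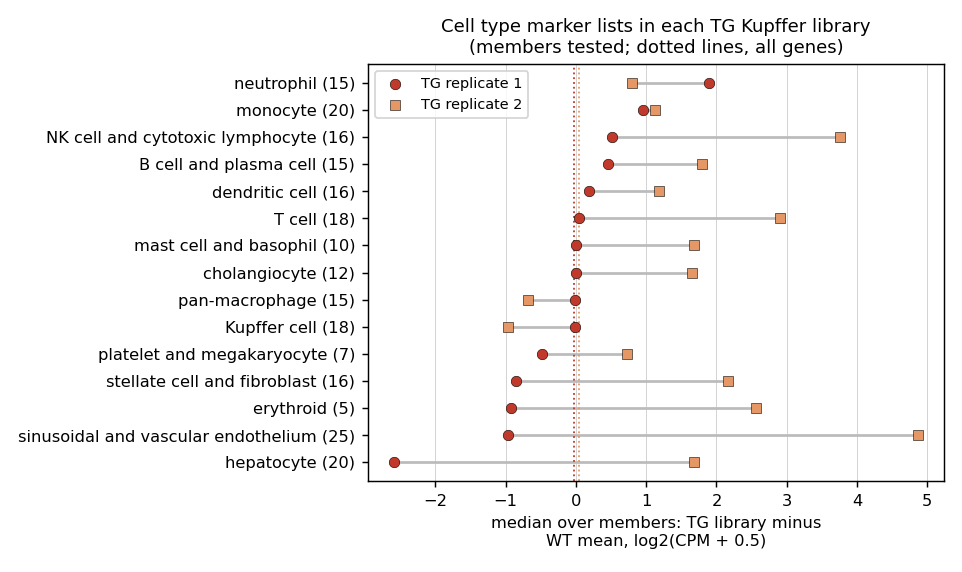
Median over each list of cell type markers of the difference between 1 TG library and the WT mean, in log2(CPM + 0.5), with TG replicate 1 as red circles and TG replicate 2 as orange squares. The number of members tested is in brackets and the dotted lines are the medians over all genes. Endothelial markers sit at -0.97 in TG replicate 1 and at 4.87 in TG replicate 2, whereas monocyte markers sit at 0.95 and 1.13.

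The labelled cell type was checked first. Tgfbr2, the receptor gene that the transgene imitates (chromosome 9, 116084293 to 116175360, GRCm38), had 319 and 289 CPM in the TG libraries and 349 and 345 CPM in WT (a log2 fold change of -0.19 ± 0.25 SE, adjusted p = 0.887). Counts per gene cannot separate a transgene from the endogenous gene, so this value does not check the genotype labels. Timd4, a receptor for phosphatidylserine, had 897 and 414 CPM in TG and 808 CPM in each WT library. Cd5l, a scavenger receptor-like protein that Kupffer cells secrete, had 10174 and 4720 CPM in TG and 8482 and 7991 CPM in WT. Of 18 Kupffer markers, none was below 1 CPM in any of the 4 libraries, so the defining genes of the labelled cell type were present in all of them.

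Across all genes, edgeR's quasi-likelihood test called 0 of 15254 genes (0%) at an adjusted p below 0.05. The smallest adjusted p was 0.199. At an unadjusted p below 0.05, 906 genes (5.94%) passed, 714 (4.68%) higher and 192 (1.26%) lower in TG. DESeq2 called 261 genes on all 8 libraries, 241 higher (1.77%) and 20 lower (0.147%), and 187 on the 4 Kupffer libraries, 154 higher (1.14%) and 33 lower (0.245%). Without TG replicate 1 edgeR called 257 genes, 255 of them higher, from TG replicate 2 as the only TG Kupffer library. The values below are therefore described library by library. A gene is said to be 2-fold higher in a TG library where that library is at least 1 above the higher WT library on log2(CPM + 0.5), and the same holds for lower values. Genes given with levels and no fold change were chosen after their values were seen, apart from the label checks, the genes with the widest gaps in 1 TG library and those that the naming rule holds.

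In 2546 genes (16.7%) each TG library exceeded the higher WT library, and in 2706 (17.7%) each was under the lower one. By the 2-fold rule, 143 genes (0.937%) were higher and 51 (0.334%) lower in both TG libraries. Many more shifts rested on TG replicate 2 alone. In that library 1517 genes (9.94%) were 2-fold higher while TG replicate 1 was not above WT, and 246 (1.61%) were 2-fold lower while TG replicate 1 was not below WT. A further 585 genes (3.84%) were 2-fold higher in TG replicate 2 and higher by less than that in TG replicate 1, and 328 (2.15%) were lower in this way. TG replicate 1 alone carried 29 genes (0.190%) 2-fold higher and 93 (0.610%) 2-fold lower, and 68 (0.446%) and 61 (0.400%) passed 2-fold there with a smaller shift in TG replicate 2. Against both WT libraries TG replicate 1 by itself had 243 genes (1.59%) 2-fold higher and 299 (1.96%) lower, and TG replicate 2 by itself 2245 (14.7%) and 625 (4.10%). Without WT replicate 1 the counts for both TG libraries were 282 higher and 159 lower, and without WT replicate 2 they were 233 and 97. Just inside the threshold for both libraries was Bzw2 with a gap of 1.004, and just outside it Lsp1 with 0.989. On the lower side the nearest genes were Itgb5 with 1.005 and Serpinb7 with 0.993.

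**Figure D2:**
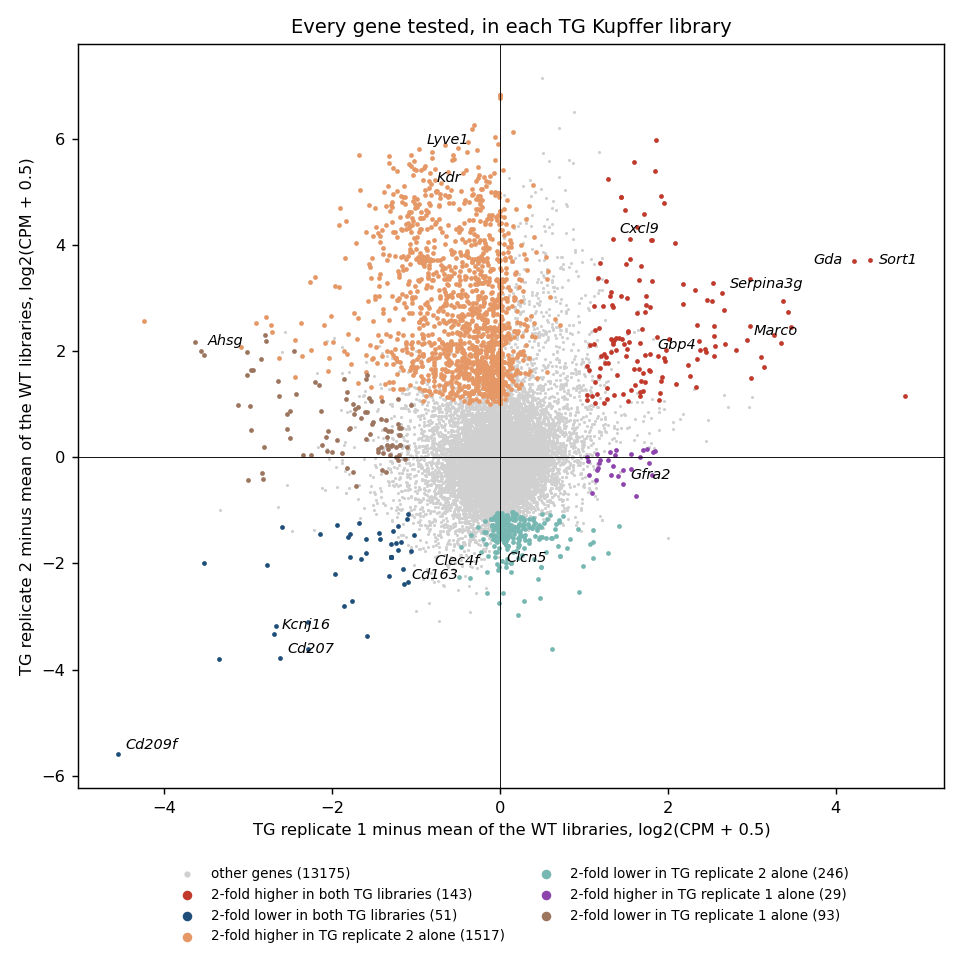
Each point is a gene tested, placed by its difference from the WT mean in TG replicate 1 (horizontal) and TG replicate 2 (vertical), both in log2(CPM + 0.5). The 143 genes 2-fold higher in both TG libraries are red and the 51 lower in both are dark blue, while the 1517 orange genes are 2-fold higher in TG replicate 2 and not above WT in TG replicate 1.

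Genes induced by interferon gamma were higher in both TG libraries. This list and the others were chosen with earlier results of these data known, so their counts are a description and not independent evidence. Of 30 members tested, all 30 had a positive log2 fold change, against 8099 of all genes (53.1%). The median was 1.53, against 0.03 over all genes. In 26 of the 30 each TG library exceeded the higher WT library (16.7% of all genes), and 12 were 2-fold higher in both (0.937%). TG replicate 1 alone was above both WT libraries in 29 (33.5% of all genes). Its median difference from WT was 1.24, against 1.65 in TG replicate 2. The summed level of the list was 8814 and 10449 CPM in TG and 4125 and 3821 CPM in WT, so the genotypes did not overlap.

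Serpina3g, a serine protease inhibitor induced by interferon gamma (chromosome 12, 104236245 to 104241939), had 1035 and 1408 CPM in TG and 170 and 159 CPM in WT (a log2 fold change of 2.89 ± 0.48, adjusted p = 0.660). Gbp4, a guanylate-binding protein (chromosome 5, 105115767 to 105139586), had 437 and 488 CPM in TG and 126 CPM in each WT library (1.88 ± 0.31, adjusted p = 0.660). Gbp5, another of that family and a factor of inflammasome assembly, had 211 and 179 CPM in TG and 71.0 and 61.0 CPM in WT (1.56 ± 0.28, adjusted p = 0.674). In these 3 genes the TG libraries were close to each other and well apart from WT. The immunity-related GTPases, which attack the vacuoles of intracellular microbes, followed the same order and reached their highest level in TG replicate 2. Irgm1 had 188 and 455 CPM in TG and 88.8 and 82.4 CPM in WT. Tgtp2 had 265 and 373 CPM in TG and 129 and 91.0 CPM in WT, and its near-identical copy Tgtp1 had 125 and 229 CPM against 56.2 and 40.8 CPM. How reads shared by such copies were counted is not given in the sources used here, so the split between them is uncertain, and the same holds for Serpina3g and Serpina3f.

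The receptor and signalling members were less uniform. Il12rb1, a chain of the receptors for interleukins 12 and 23 (chromosome 8, 70808449 to 70821424), had 20.4 and 15.04 CPM in TG and 1.44 and 1.61 CPM in WT (3.54 ± 0.35, adjusted p = 0.199). Irf1 had 574 and 548 CPM in TG and 346 and 320 CPM in WT. This transcription factor stood higher in each TG library than in either WT library. Ciita had 303 CPM in TG replicate 1 but 105 CPM in TG replicate 2, close to the 76.4 and 98.7 CPM of WT. The chemokine Cxcl9, which attracts activated T cells, had 125 and 858 CPM in TG and 61.1 and 39.2 CPM in WT (3.29 ± 1.15, adjusted p = 0.730), and its log2 fold change was 1.36 without TG replicate 2. Cxcl10, a chemokine for the same receptor, had 189 and 1000 CPM in TG and 105 and 177 CPM in WT, so that most of its shift also lay in TG replicate 2.

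Ifng itself, made by lymphocytes, had 2.42 and 31.9 CPM in TG and 0.718 and 0.448 CPM in WT. Markers of NK and cytotoxic cells were higher too: 10 of 16 were above both WT libraries in both TG libraries (16.7% of all genes were). Their median difference from WT was 0.51 in TG replicate 1 and 3.75 in TG replicate 2, against 1.24 and 1.65 for the interferon list. Their summed level was 134 and 764 CPM in TG and 104 and 105 CPM in WT. The part of these cells in the interferon values was not tested. In TG replicate 1 that sum was above both WT libraries as well.

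The interferon genes are shown with their promoters because their members moved together in both TG libraries. Promoters are 250 bases before to 50 bases after the start site, 5′ to 3′ on the gene's strand, from RefSeq on GRCm38.p6. Capitals mark the core of the interferon-stimulated response element, GAAANNGAAA, or of the gamma-activated site, TTCNNNGAA, on either strand, and matches may overlap. Gbp5 lies at chr3:142496684-142496983 (plus strand), Irgm1 at chr11:48871371-48871670 (minus), Tgtp2 at chr11:49064163-49064462 (minus), Serpina3g at chr12:104235897-104236196 (plus) and Marco, which is not on the interferon list and is described further on, at chr1:120504975-120505274 (minus).
Gbp5: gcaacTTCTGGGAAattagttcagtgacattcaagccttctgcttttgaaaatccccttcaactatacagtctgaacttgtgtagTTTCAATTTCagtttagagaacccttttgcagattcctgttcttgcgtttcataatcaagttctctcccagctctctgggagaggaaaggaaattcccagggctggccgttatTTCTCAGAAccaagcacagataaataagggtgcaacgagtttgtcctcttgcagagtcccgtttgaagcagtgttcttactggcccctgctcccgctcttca
Irgm1: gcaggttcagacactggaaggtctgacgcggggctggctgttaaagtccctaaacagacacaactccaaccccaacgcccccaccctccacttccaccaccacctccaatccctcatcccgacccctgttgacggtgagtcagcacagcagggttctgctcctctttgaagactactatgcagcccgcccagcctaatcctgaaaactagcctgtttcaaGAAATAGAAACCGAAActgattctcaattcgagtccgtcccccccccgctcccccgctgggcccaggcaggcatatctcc
Tgtp2: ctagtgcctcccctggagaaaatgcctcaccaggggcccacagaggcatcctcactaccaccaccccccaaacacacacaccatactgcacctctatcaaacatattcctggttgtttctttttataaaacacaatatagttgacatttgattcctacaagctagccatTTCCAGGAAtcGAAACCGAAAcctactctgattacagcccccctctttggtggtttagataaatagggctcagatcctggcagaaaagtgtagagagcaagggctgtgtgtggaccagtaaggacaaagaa
Serpina3g: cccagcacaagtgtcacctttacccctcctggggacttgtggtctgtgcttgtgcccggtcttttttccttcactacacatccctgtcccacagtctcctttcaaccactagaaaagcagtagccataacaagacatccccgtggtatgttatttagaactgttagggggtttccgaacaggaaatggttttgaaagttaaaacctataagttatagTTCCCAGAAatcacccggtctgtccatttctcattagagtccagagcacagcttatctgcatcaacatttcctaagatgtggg
Marco: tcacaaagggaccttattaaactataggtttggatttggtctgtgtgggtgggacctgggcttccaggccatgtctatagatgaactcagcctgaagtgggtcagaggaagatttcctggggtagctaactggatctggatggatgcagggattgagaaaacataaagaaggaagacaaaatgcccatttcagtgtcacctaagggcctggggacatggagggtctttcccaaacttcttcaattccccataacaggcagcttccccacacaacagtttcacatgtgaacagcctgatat

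In Gbp5 the response element core lies 165 to 156 bases before the start site, with gamma-activated cores at 245 to 237 and at 52 to 44 bases before it. Irgm1 has a pair of overlapping response element cores between 30 and 15 bases before the start. In Tgtp2 both cores lie next to each other, from 81 to 61 bases before the start, and Serpina3g has a single gamma-activated core at 33 to 25 bases before it. The Marco window holds neither set of letters. Of the 18 list members with a RefSeq promoter, 11 held the response element core (61.1%) and 9 the gamma-activated core (50%), against 3.99% and 9.55% of the 27025 genes with a promoter in that table. Among the 143 genes 2-fold higher in both TG libraries, 110 had a promoter, and 9 (8.18%) and 13 (11.8%) of these held the cores. Among the 51 lower genes, 29 had a promoter, and 2 (6.9%) and 3 (10.3%) held them, close to the shares of the higher genes. Of 10 MHC class II genes with a promoter, 1 held each core (10%). A match of letters is a description and not a binding site.

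MHC class II genes, which present peptides to CD4 T cells, were also higher in both TG libraries. Of 13 members tested, 12 had a positive log2 fold change, 11 lay above WT in both TG libraries and 5 were 2-fold higher in both. Over all genes these shares were 53.1%, 16.7% and 0.937%. The median was 1.22, with 1.17 in TG replicate 1 and 1.05 in TG replicate 2. Cd74, the invariant chain that escorts class II molecules, had 13180 and 11738 CPM in TG and 5139 and 5778 CPM in WT. H2-Aa, an alpha chain (chromosome 17, 34282744 to 34287823), had 4643 and 4856 CPM in TG and 1508 and 1556 CPM in WT (1.63 ± 0.39, adjusted p = 0.730). H2-Eb1, a beta chain, had 4633 and 2860 CPM in TG and 1189 and 1273 CPM in WT (1.61 ± 0.39, adjusted p = 0.730). These are among the most abundant messages of the list, and the TG libraries did not overlap with WT. H2-Oa, which restrains peptide loading and is typical of B cells and dendritic cells, was far lower, at 4.23 and 12.8 CPM in TG and 1.29 and 1.42 CPM in WT (2.64 ± 0.59, adjusted p = 0.730). Ctss, the protease that trims the invariant chain, had 2962 and 1950 CPM in TG and 2836 and 2486 CPM in WT and was the one member with a negative value.

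Dendritic cell and monocyte markers stood beside these class II values. The 16 dendritic cell markers summed to 424 CPM in TG replicate 1, within the 408 and 435 CPM of WT, and to 984 CPM in TG replicate 2. The 20 monocyte markers summed to 3517 and 1999 CPM in TG and 3298 and 3189 CPM in WT, a sum led by Itgal, which Kupffer cells also express. Nonetheless 11 of them were above WT in both TG libraries and 2 below (16.7% and 17.7% of all genes were). Napsa, an aspartic protease of monocytes, had 5.56 and 18.2 CPM in TG and 2.30 and 1.90 CPM in WT (2.495 ± 0.63, adjusted p = 0.730). Ccr2, the chemokine receptor of inflammatory monocytes, had 10.1 and 13.1 CPM in TG and 6.46 and 3.88 CPM in WT. The part of monocytes in the class II values was not tested.

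**Figure D3:**
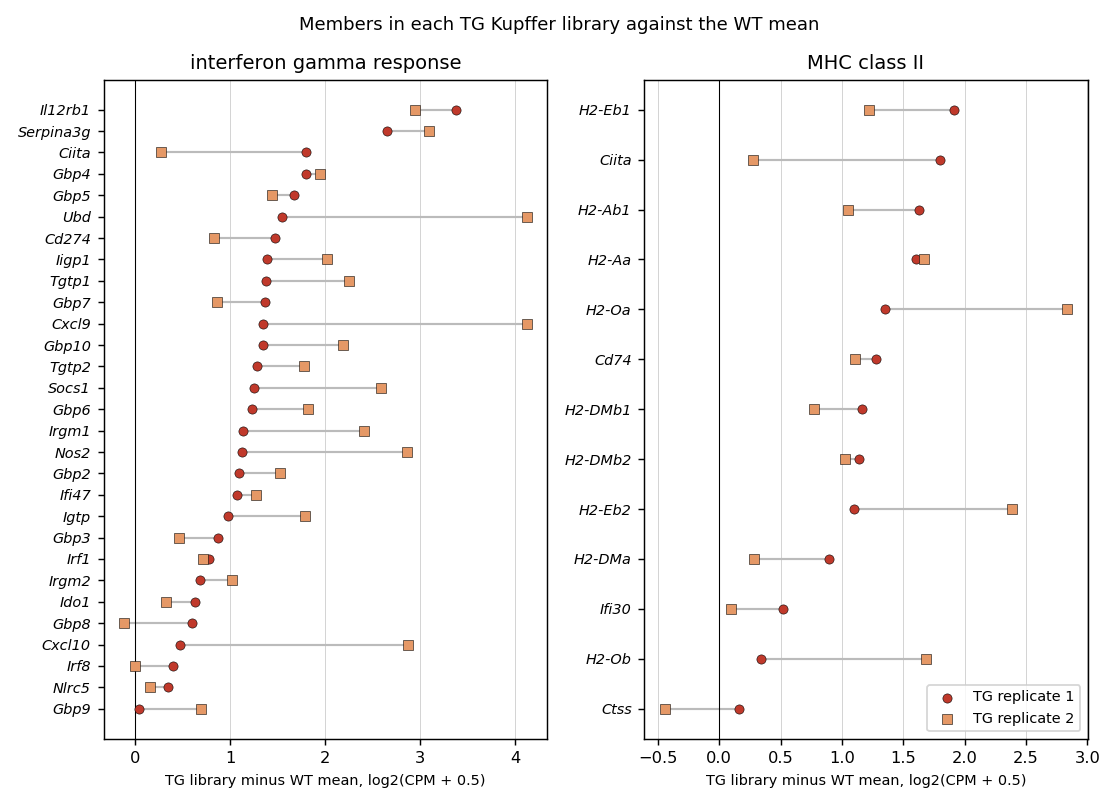
Tested members of the interferon gamma list, 1 of them not shown (left) and the MHC class II list (right), as the difference of each TG library from the WT mean in log2(CPM + 0.5), with TG replicate 1 as red circles and TG replicate 2 as orange squares. In TG replicate 1 the members with the largest difference are Il12rb1 and Serpina3g on the left and H2-Eb1 on the right. Cxcl9, Ubd and Cxcl10 lie much farther out in TG replicate 2.

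Genes of MHC class I presentation differed less. All 20 members lay above both WT libraries in TG replicate 1 (33.5% of all genes did), but 9 did so in TG replicate 2 (43.6% of all genes), and 0 were 2-fold higher in both. Tap1, which pumps peptides into the endoplasmic reticulum, had 436 and 346 CPM in TG and 226 and 236 CPM in WT (0.76 ± 0.24, adjusted p = 0.730). Type I interferon genes went the other way in TG replicate 1, where 21 of 24 lay below both WT libraries (36.7% of all genes did) and the median difference was -0.45. In TG replicate 2 the median was 0.08, and 13 of the 24 lay above both WT libraries. Oas3, a sensor of double-stranded RNA, had 107 and 85.8 CPM in TG and 204 and 279 CPM in WT, whereas Rsad2, the antiviral protein viperin, had 135 CPM in TG replicate 1, 632 CPM in TG replicate 2 and 188 and 257 CPM in WT.

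Of the genes with the widest gaps between genotypes, Il12rb1 and Serpina3g belong to the interferon list, and others do not. Sort1, the sorting receptor sortilin (chromosome 3, 108284082 to 108361511), had 68.2 and 41.9 CPM in TG and 3.59 and 2.05 CPM in WT (4.28 ± 0.44, adjusted p = 0.199). Gda, guanine deaminase (chromosome 19, 21391307 to 21473445), had 96.7 and 67.9 CPM in TG and 6.43 and 3.47 CPM in WT (4.05 ± 0.54, adjusted p = 0.374). Both genes were higher in TG replicate 1 than in TG replicate 2, and neither passed 6.43 CPM in WT. Gas7, a regulator of the actin skeleton, had 29.9 and 39.2 CPM in TG and 3.63 and 3.14 CPM in WT (3.35 ± 0.58, adjusted p = 0.662). Anpep, the surface peptidase CD13, had 41.4 and 58.6 CPM in TG and 7.54 and 6.65 CPM in WT (2.82 ± 0.27, adjusted p = 0.199). Acod1, which makes the antimicrobial metabolite itaconate, had 141 and 190 CPM in TG and 22.7 and 25.5 CPM in WT (2.78 ± 0.86, adjusted p = 0.730). None of these 5 genes is on a marker list of another cell type, which does not tell which cells carried them. Each was higher in both WT MoM libraries than in both WT Kupffer libraries. In WT MoM, Anpep had 105 and 124 CPM, Gas7 29.1 and 65.8 CPM and Acod1 37.0 and 202 CPM. The part of monocyte-derived cells in these rises was not tested. The 5 genes were picked by their gap in both TG libraries, so passing the 2-fold rule in both follows from that choice.

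Marco, a scavenger receptor for bacteria and particles (chromosome 1, 120474538 to 120505024), was the most abundant of these genes. It had 5492 and 3309 CPM in TG and 687 and 743 CPM in WT (2.62 ± 1.38, adjusted p = 0.730). The spread in this test is shared with the MoM libraries, where WT alone had 345 and 8.33 CPM. DESeq2 gave an adjusted p of 8.54e-11 on the 4 Kupffer libraries and of 0.263 on all 8. Gpnmb, a glycoprotein of lipid-laden macrophages, had 17.5 and 19.6 CPM in TG and 3.45 and 2.69 CPM in WT (2.59 ± 0.27, adjusted p = 0.199). Pdcd1lg2, the checkpoint ligand PD-L2, had 13.1 and 12.4 CPM in TG and 1.58 and 2.09 CPM in WT (2.79 ± 0.33, adjusted p = 0.348). Procr, the endothelial protein C receptor, had 143 and 103 CPM in TG and 25.2 and 22.4 CPM in WT (2.37 ± 0.30, adjusted p = 0.374). Htra1, a secreted serine protease, had 13.6 and 6.78 CPM in TG and 0.898 and 1.05 CPM in WT (3.39 ± 0.53, adjusted p = 0.660). Serpina3f, a close relative of Serpina3g, had 518 and 869 CPM in TG and 88.6 and 88.7 CPM in WT (2.97 ± 0.72, adjusted p = 0.730).

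**Figure D4:**
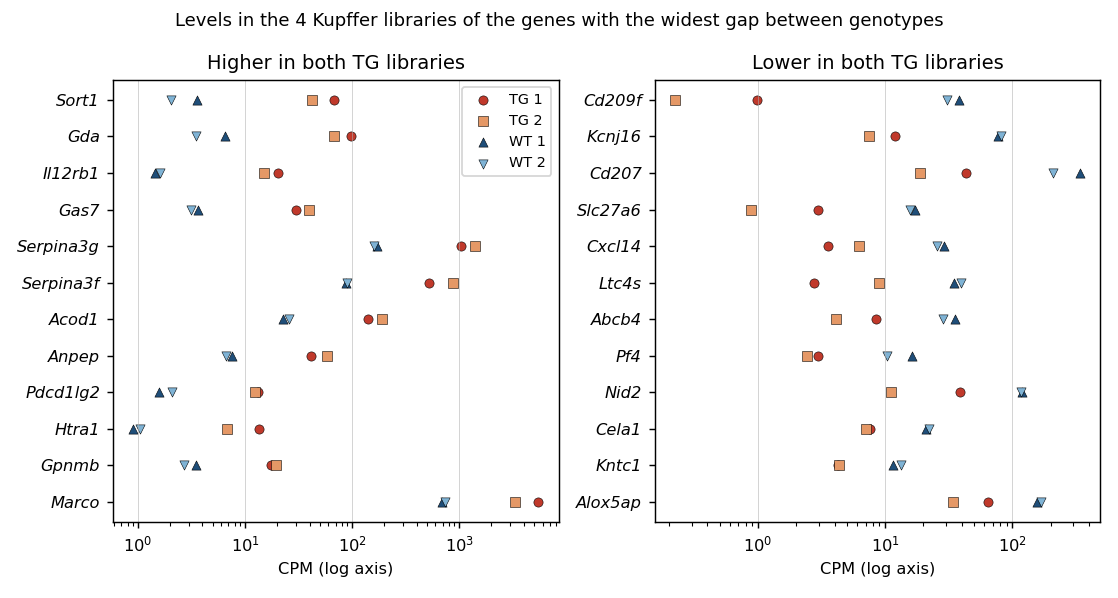
Level in CPM (log axis) of the 12 genes with the widest gap above WT (left) and the 12 with the widest gap below WT (right), in TG replicates 1 and 2 (circles and squares) and WT replicates 1 and 2 (triangles up and down). In each row the TG symbols lie on one side of the WT symbols, from Sort1 at 41.9 CPM or more in TG and 3.59 CPM or less in WT to Cd209f at 0.983 CPM or less in TG and 30.8 CPM or more in WT.

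Lower in both TG libraries were several lectins and transporters. Cd209f, a C-type lectin of the DC-SIGN family (chromosome 8, 4102787 to 4105835), had 0.983 and 0.221 CPM in TG and 38.2 and 30.8 CPM in WT (a log2 fold change of -5.83 ± 1.58, adjusted p = 0.730). Its neighbour in that family, Cd209g, had 0.491 and 0.221 CPM in TG and 11.6 and 7.84 CPM in WT. Cd207, the lectin langerin (chromosome 6, 83671215 to 83677857), had 43.1 and 18.9 CPM in TG and 342 and 209 CPM in WT (-3.15 ± 1.04, adjusted p = 0.730). All 3 lectins were lower in each TG library, which for Cd209f and Cd207 follows from how they were picked. Kcnj16, a potassium channel, had 11.8 and 7.41 CPM in TG and 77.7 and 80.8 CPM in WT (-3.04 ± 1.48, adjusted p = 0.730). Slc27a6, a fatty acid transporter, had 2.95 and 0.885 CPM in TG and 17.1 and 15.6 CPM in WT (-3.09 ± 1.26, adjusted p = 0.730). Abcb4, the phospholipid export pump, had 8.43 and 4.13 CPM in TG and 35.2 and 28.6 CPM in WT (-2.34 ± 0.75, adjusted p = 0.730).

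Further genes 2-fold lower in both libraries had other roles. Ltc4s, leukotriene C4 synthase, had 2.76 and 8.92 CPM in TG and 34.6 and 39.4 CPM in WT (-2.66 ± 0.72, adjusted p = 0.730). Alox5ap, the protein that presents arachidonic acid to 5-lipoxygenase, had 63.9 and 33.96 CPM in TG and 155 and 167 CPM in WT (-1.72 ± 0.40, adjusted p = 0.730). The chemokines Cxcl14 and Pf4 were lower too. Cxcl14 had 3.55 and 6.27 CPM in TG and 29.1 and 25.6 CPM in WT (-2.48 ± 1.08, adjusted p = 0.730). Pf4, platelet factor 4, had 2.95 and 2.43 CPM in TG and 16.2 and 10.4 CPM in WT (-2.30 ± 0.42, adjusted p = 0.674). Nid2, a basement membrane protein, had 38.8 and 11.02 CPM in TG and 118 and 117 CPM in WT (-2.24 ± 0.78, adjusted p = 0.730). Of the smallest p among lower genes, Kntc1, a protein of the kinetochore, had 4.23 and 4.31 CPM in TG and 11.6 and 13.3 CPM in WT (-1.54 ± 0.24, adjusted p = 0.660), and Mxi1, an antagonist of Myc, had 40.1 and 35.6 CPM against 79.0 and 70.7 CPM (-0.98 ± 0.19, adjusted p = 0.674). Of the 51 genes lower in both libraries, 14 are protocadherin alpha genes, which share exons and here share counts, with 0.68 to 1.17 CPM in TG replicate 1, so 37 remain as separate measurements.

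Markers of Kupffer cell identity were split by library. Over 18 markers the median difference from WT was -0.02 in TG replicate 1 and -0.97 in TG replicate 2. The list median of -0.37 became 0.03 without TG replicate 2 and -0.04 when libraries were scaled on pan-macrophage genes. In 9 of the 18 markers both TG libraries were below both WT libraries, and in 3 both were above (17.7% and 16.7% of all genes were). Clec4f had 6558 and 2736 CPM in TG and 11553 and 12314 CPM in WT. Cd163, the receptor for haptoglobin and hemoglobin (chromosome 6, 124304656 to 124330527), had 1039 and 435 CPM in TG and 2175 and 2406 CPM in WT (-1.64 ± 1.40, adjusted p = 0.819). Fcna, a ficolin that tags microbes, had 1787 and 764 CPM in TG and 2993 and 3580 CPM in WT. Vsig4, a complement receptor, had 1769 and 1173 CPM in TG and 2643 and 2415 CPM in WT. Others, such as Timd4 and Cd5l, lay above WT in TG replicate 1 and below it in TG replicate 2. Spic, a transcription factor that macrophages need for iron recycling, had 115 and 165 CPM in TG and 94.3 and 106 CPM in WT, and was one of the 3 markers above WT in both TG libraries, with Marco and Il18bp.

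Among complement genes, C3, the central component of the cascade (chromosome 17, 57203970 to 57228136), had 1121 and 721 CPM in TG and 167 and 219 CPM in WT (2.26 ± 0.46, adjusted p = 0.730). Cfb, a protease of the alternative pathway, had 1244 and 470 CPM in TG and 291 and 303 CPM in WT. C3ar1, the receptor for the C3a fragment, was lower, at 98.1 and 102 CPM in TG and 177 and 182 CPM in WT (-0.84 ± 0.31, adjusted p = 0.730). The chains of C1q, the starter of the classical pathway, lay below WT in both TG libraries, as C1qa shows with 3718 and 2689 CPM in TG and 4155 and 4477 CPM in WT. Over the 23 complement and Fc receptor genes, 5 were above and 8 below WT in both TG libraries, against 16.7% and 17.7% of all genes, and the median was -0.01.

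Of 21 chemokines, 8 were above and 3 below WT in both TG libraries (16.7% and 17.7% of all genes were), and 5 were 2-fold higher in TG replicate 2 alone (9.94% of all genes). Cxcl13, which attracts B cells, had 1397 and 516 CPM in TG and 162 and 153 CPM in WT. Ccl24, an attractant of eosinophils, had 400 and 412 CPM in TG and 168 and 162 CPM in WT. Both were thus 2-fold higher in both TG libraries. Ccl5, Ccl22, Ccl3, Ccl4 and Ccl9 were the 5 that rested on TG replicate 2, and Ccl4, for example, had 95.1 CPM in TG replicate 1, 593 CPM in TG replicate 2 and 122 and 213 CPM in WT. The list median of 0.89 was 0.14 without TG replicate 2.

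Among ligands that restrain T cells, Cd274, which encodes PD-L1, had 530 and 339 CPM in TG and 233 and 156 CPM in WT (1.16 ± 0.37, adjusted p = 0.730), and Nectin2 had 43.4 and 66.0 CPM against 20.5 and 20.7 CPM (1.41 ± 0.44, adjusted p = 0.730). The costimulatory ligand Cd86 was lower, at 226 and 202 CPM in TG and 328 and 290 CPM in WT (-0.53 ± 0.20, adjusted p = 0.730). Over the 17 checkpoint and costimulation genes tested, 4 were above and 5 below WT in both TG libraries, against 16.7% and 17.7% of all genes. Mmp14, a membrane-bound matrix protease, had 276 and 201 CPM in TG and 61.5 and 40.6 CPM in WT (2.22 ± 0.41, adjusted p = 0.674). Ptgs2, the inducible cyclooxygenase, had 75.1 and 81.0 CPM in TG and 19.9 and 6.42 CPM in WT (2.57 ± 1.11, adjusted p = 0.730), while the inflammasome sensor Nlrp3 was lower, at 255 and 265 CPM against 407 and 462 CPM (-0.74 ± 0.26, adjusted p = 0.730). Trem2, a lipid receptor of macrophages, was 2-fold lower in both TG libraries, with 9.15 and 11.7 CPM in TG and 40.5 and 26.7 CPM in WT (-1.69 ± 0.55, adjusted p = 0.730).

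Lists of metabolism and housekeeping differed between the TG libraries. Over all genes, 33.5% lay above both WT libraries in TG replicate 1 and 43.6% in TG replicate 2, and the counts that follow are read against these shares. Genes of nuclear-encoded oxidative phosphorylation lay above both WT libraries in 25 of 26 cases in TG replicate 1, with a median difference of 0.44, and in 12 of 26 in TG replicate 2, with a median of 0.03. Glycolysis genes did so in 15 of 17 and 10 of 17, with medians of 0.52 and 0.15, and cytosolic ribosomal protein genes in 22 of 22 and 8 of 22, with 0.26 and 0.09. Aldoa, the glycolytic aldolase, had 656 and 597 CPM in TG and 433 and 448 CPM in WT (0.51 ± 0.25, adjusted p = 0.730). Lysosome genes had medians of 0.10 in TG replicate 1 and -0.54 in TG replicate 2, and targets of the sterol receptor LXR -0.01 and -0.88, and both list medians turned positive without TG replicate 2 (0.14 and 0.03). DNA replication genes were lower in TG replicate 1, where 18 of 26 lay below both WT libraries (36.7% of all genes did), and Mcm5, a subunit of the replicative helicase, had 33.2 CPM in each TG library and 53.9 and 60.5 CPM in WT (-0.79 ± 0.18, adjusted p = 0.730).

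**Figure D5:**
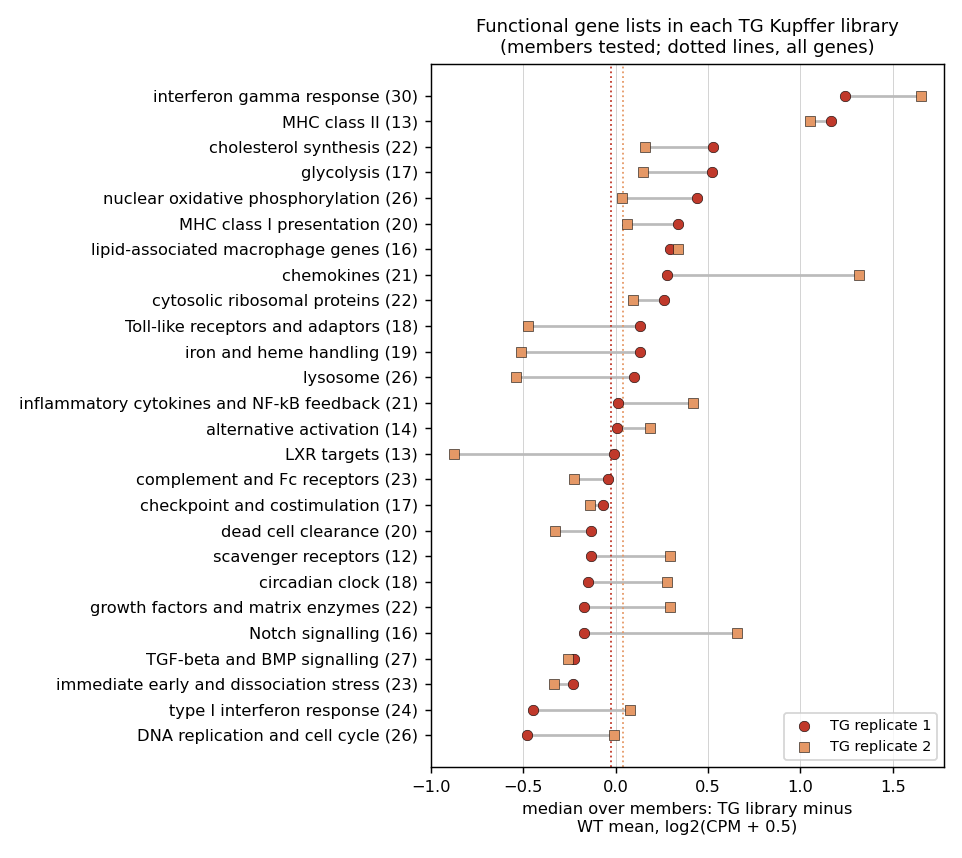
Median over each functional list of the difference between 1 TG library and the WT mean, in log2(CPM + 0.5), with TG replicate 1 as red circles, TG replicate 2 as orange squares, the members tested in brackets and the medians over all genes as dotted lines. The interferon gamma and MHC class II lists lie beyond 1 in both TG libraries, while all other lists lie between -0.48 and 0.53 in TG replicate 1.

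The TGF-β and BMP genes, which relay the signal that the transgene blocks in T cells, were examined as a list of 27. Of these, 2 were above and 9 below WT in both TG libraries (16.7% and 17.7% of all genes were), and 8 were 2-fold higher in TG replicate 2 alone (9.94% of all genes). Tgfbr1, the partner receptor, had 87.6 and 69.5 CPM in TG and 177 and 160 CPM in WT. Skil, a repressor that TGF-β itself induces, had 251 and 235 CPM in TG and 447 and 401 CPM in WT (-0.80 ± 0.29, adjusted p = 0.730). Tgfb1, a ligand of the pathway, had 296 and 300 CPM in TG and 295 and 284 CPM in WT. The 8 that rested on TG replicate 2 include the endothelial receptors Eng and Tgfbr3 and the ligands Bmp2 and Bmp6. Eng had 37.5 CPM in TG replicate 1, 1486 CPM in TG replicate 2 and 30.9 and 62.6 CPM in WT.

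Among the genes with the widest gaps above WT in TG replicate 2 alone were several of blood and lymph vessels. Lyve1, a hyaluronan receptor of sinusoidal and lymphatic endothelium, had 4.84 CPM in TG replicate 1, 585 CPM in TG replicate 2 and 8.73 and 11.3 CPM in WT. Ccl21b, a chemokine of lymphatic endothelium, had 54.5 CPM in TG replicate 2 and 0 counts in the other 3 libraries. Its near-identical copy Ccl21c had 56.2 CPM and 0, so the split between them is uncertain. Rspo3, a Wnt agonist of central vein endothelium, had 43.1 CPM in TG replicate 2 and 0.151 to 0.359 CPM in the others. F2r, the thrombin receptor, had 440 CPM and 3.74 to 8.81 CPM in the others, and Sox7, an endothelial transcription factor, had 72.4 CPM and 0.529 to 1.08 CPM. Osmr, the receptor for oncostatin M, had 128 CPM in TG replicate 2 and 0.862 to 1.79 CPM in the others. TG replicate 1 was not above both WT libraries in any of these genes, and in Lyve1, Rspo3 and Sox7 it was below both.

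By list, 22 of 25 endothelial markers were 2-fold higher in TG replicate 2 alone (9.94% of all genes were). So were 14 of 16 stellate cell and fibroblast markers, 8 of 18 T cell markers, 6 of 16 genes of the Notch pathway and all 5 erythroid markers tested. Bgn, a matrix proteoglycan, had 3.55 CPM in TG replicate 1, 421 CPM in TG replicate 2 and 10.8 and 14.2 CPM in WT. Dll4, a Notch ligand of endothelium, had 1.97, 88.2, 2.91 and 5.08 CPM in the same order. Without TG replicate 2 the median of the endothelial list turned from 3.84 to -1.07 and that of the stellate list from 1.94 to -1.71. One endothelial marker was 2-fold higher in both TG libraries: Dnase1l3, a secreted nuclease that macrophages also make, had 275 and 1809 CPM in TG and 73.7 and 107 CPM in WT (3.53 ± 1.02, adjusted p = 0.730).

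The genes with the widest gaps below WT in TG replicate 2 alone had varied roles. Clcn5, an endosomal chloride transporter, had 33.0 CPM in TG replicate 1, 7.56 CPM in TG replicate 2 and 32.7 and 33.9 CPM in WT. Hnrnpa0, an RNA-binding protein, had 323, 74.2, 299 and 292 CPM in that order, and Mib1, a ubiquitin ligase of Notch ligands, had 70.5, 17.2, 71.2 and 62.0 CPM. Tsix, the antisense transcript of Xist, had 99.3, 10.5, 87.6 and 83.2 CPM, but reads of a gene and its antisense partner cannot be told apart where the strand setting is not given. With libraries scaled on pan-macrophage genes, whose offset in TG replicate 2 was -0.78 on the log2 scale, 41 genes were lower in TG replicate 2 alone in place of 246, and 2822 higher in place of 1517.

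TG replicate 1 alone had few shifts. Higher there were Gfra2, a receptor of the neurturin family, with 212 CPM in TG replicate 1, 53.7 CPM in TG replicate 2 and 61.3 and 95.6 CPM in WT, and Asb2, a ubiquitin ligase subunit, with 123, 42.8, 47.2 and 48.3 CPM. Rcc1, the exchange factor of the GTPase Ran, had 115, 44.3, 52.3 and 49.5 CPM, and Enpp2, the enzyme autotaxin, 28.5, 8.74, 12.3 and 10.04 CPM. Among the 93 genes lower there (0.610% of all genes) were 8 of the 20 hepatocyte markers. Ahsg, a secreted liver glycoprotein, had 0.605 CPM in TG replicate 1, 52.2 CPM in TG replicate 2 and 5.46 and 28.3 CPM in WT. The 20 hepatocyte markers had a median difference of -2.59 in TG replicate 1, and 13 of them were below 1 CPM there. The fatty acid transporter Cd36, which several cell types express, had 70.8 CPM in TG replicate 1, 545 CPM in TG replicate 2 and 282 and 227 CPM in WT.

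Markers of some other blood cells were also above WT in TG replicate 1, at low levels, whereas erythroid and platelet markers were mostly not (medians of -0.92 and -0.49) and T cell markers had a median of 0.04. Gzmb, a granule protease of cytotoxic lymphocytes, had 9.11 and 151 CPM in TG and 2.30 and 3.14 CPM in WT (4.88 ± 1.57, adjusted p = 0.730), and Gzma had 5.63 and 95.2 CPM against 2.08 and 1.94 CPM. Of 15 neutrophil markers tested, 13 were above WT in both TG libraries (16.7% of all genes were). The medians were 1.90 in TG replicate 1 and 0.80 in TG replicate 2. The 16 markers summed to 220 and 146 CPM in TG and 175 and 189 CPM in WT. The member Mmp9 was 2-fold lower in both TG libraries, with 12.9 and 17.7 CPM against 43.5 and 41.0 CPM. S100a9, a calcium-binding protein of neutrophils, had 9.41 and 6.49 CPM in TG and 0.575 and 0.971 CPM in WT (3.36 ± 1.496, adjusted p = 0.730), and Mpo, the granule peroxidase, had 2.49 and 1.33 CPM against 0.359 and 0.0747 CPM (3.11 ± 1.01, adjusted p = 0.730). In each WT library 14 of the 16 neutrophil markers were below 1 CPM. The 15 B cell and plasma cell markers summed to 311 and 364 CPM in TG and 358 and 410 CPM in WT. Of these, 8 were above and 2 below WT in both TG libraries (16.7% and 17.7% of all genes were). Among B cell and plasma cell markers, Sdc1, the plasma cell antigen syndecan 1, had 20.5 and 9.84 CPM in TG and 0.970 and 1.94 CPM in WT (3.38 ± 0.55, adjusted p = 0.660), and Jchain, which links polymeric antibodies, had 5.93 and 46.0 CPM against 1.72 and 0.747 CPM (4.39 ± 1.19, adjusted p = 0.730).

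The MoM libraries gave another reading of the same genes. The 2-fold rule did not use their levels, though they entered the filter and the scaling. Of the 143 genes 2-fold higher in both TG Kupffer libraries, 48 (33.6%) had both TG MoM libraries above both WT MoM libraries and 12 (8.39%) below, against 19.2% and 20.0% of all genes tested. Of the 51 lower genes, 1 (1.96%) was above and 21 (41.2%) below, but 14 of the 51 are protocadherin alpha genes that share counts. Of the 1517 genes higher in TG Kupffer replicate 2 alone, 83 (5.47%) were above and 670 (44.2%) below. WT MoM replicate 1 carried 3599 CPM of Clec4f and 946 CPM of Kdr, so it too holds messages of other cells, and their part in these shares was not tested. Gda had 223 and 438 CPM in TG MoM and 33.997 and 59.1 CPM in WT MoM, and Sort1 had 129 and 125 CPM against 38.9 and 64.2 CPM. Marco, in contrast, had 84.2 and 52.7 CPM in TG MoM and 345 and 8.33 CPM in WT MoM, which overlap. The test of the difference between the TG effect in MoM and in Kupffer cells called 0 genes (0%) in edgeR, with 980 (6.42%) at an unadjusted p below 0.05.

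The authors' deposited table lists 179 genes for TG against WT, 151 higher and 28 lower, and names no cell type. The mean level it gives lay within 1% of that of the 4 Kupffer libraries for all 179 genes and for 0 in MoM. Of the 151 higher genes in the authors' deposited table, 94 were 2-fold higher in both TG libraries, 40 were 2-fold higher in TG replicate 2 and higher by less in TG replicate 1, and 12 rested on TG replicate 2 alone. A further 4 passed 2-fold in TG replicate 1 with a smaller shift in TG replicate 2. Of the 28 lower genes, 20 were 2-fold lower in both TG libraries. Its genes were chosen on these libraries and are no independent evidence. DESeq2 run here on the 4 Kupffer libraries called 187 genes, of which 176 are in that table.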

How the data were processed

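RNA-seq counts of 8 mouse libraries were used, 2 of each genotype in Kupffer cells and in MoM. The authors deposited whole-number counts per gene symbol, aligned with STAR 2.5.2b to mm10 per the submitters' processing notes. The read counter, the annotation and whether strand was used were not given in the sources used here. Among counts of 1 to 19, 65.0% to 68.0% were even over the 8 libraries, as if both mates had been counted. After TMM scaling, 1 count was worth 0.0359 to 0.0378 CPM in the Kupffer libraries. The deposited table of TG against WT holds the authors' mean normalized counts, log2 fold changes, a score (the test statistic) and p-values for 179 genes; these were used only for the comparison with the 2-fold classes.

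TG and WT Kupffer cells were compared with edgeR 4.0.16 in R 4.3.3 (quasi-likelihood test on all 8 libraries in 4 groups, TMM scaling, filterByExpr) with Benjamini-Hochberg adjustment over 15254 genes. DESeq2 1.42.0 was an alternative, and the procedure was tested on simulated data. Differences per library use log2(CPM + 0.5). Coordinates are from GENCODE M21 (GRCm38), which matched 24211 of 24786 symbols (97.68%). Tables and figures were made with Python 3.11.15, pandas 2.3.3, numpy 2.4.6 and matplotlib 3.10.9. The 36 genes in 17 groups with identical counts are not separate measurements.

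The members and the 41 gene lists (26 of function, 15 of cell type markers) were chosen with earlier results of these data known. Genes are named with a fold change by a rule. It takes the 12 widest gaps shared by both TG libraries and the 6 smallest p, in each direction. These were ranked without predicted genes and only if the group with more RNA of the gene averaged 10 CPM or more. The rule also takes 6 genes in each direction from the authors' table, with levels alone unless another part of the rule holds them. It further takes up to 4 members of each list with the smallest p. No level was required of these, and some lie below 10 CPM. List members are given a fold change only where the TG and WT libraries did not overlap. Those that passed 2-fold in TG replicate 2 with a smaller shift in TG replicate 1 are left out, unless another part of the rule holds them. The 8 widest gaps in a single TG library, in each direction, are named with levels alone. The values of 2 list members are not reported here. Alternatives were DESeq2, its size factors, no filter, a pseudocount of 2, a threshold of 2 in log2, the 4 Kupffer libraries only, each Kupffer library left out, the replicate number as a block and, added after seeing the data, scaling on pan-macrophage genes and a fit without TG Kupffer replicate 2 and WT MoM replicate 1.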

Additional observations from a re-analysis of the deposited data

How the results depend on the processing

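The 143 genes 2-fold higher in both TG libraries became 75 with a pseudocount of 2 and 20 with a threshold of 2 in log2, and 233 to 2245 with a library left out. The 51 lower genes became 21, 7 and 97 to 625 under the same settings. Scaling on pan-macrophage genes, added after seeing the data, gave 192 and 34, with 142 of the 143 shared. Genes 2-fold higher in TG replicate 2 alone numbered 791 and lower ones 11 with the threshold of 2, and 2822 and 41 with the pan-macrophage scaling. The number of genes called, 0 in edgeR, was 261 with DESeq2 on 8 libraries and 187 on 4, and 0 to 257 with a library left out. The 109 genes that could be given a fold change kept its sign under every alternative run. In these genes the TG and WT libraries did not overlap, so leaving out a library could hardly reverse a sign. List members that rested on TG replicate 2 alone are not among them. Nor are those that passed 2-fold there with a smaller shift in TG replicate 1, unless another part of the naming rule holds them. Without TG replicate 2 the medians of 17 of 41 lists changed sign. Beside those given with their lists, these include Notch (0.34 to -0.23), the clock (0.15 to -0.45), hepatocyte markers (0.46 to -4.12), iron handling (-0.17 to 0.17), scavenger receptors (0.10 to -0.09) and growth factors and matrix enzymes (0.17 to -0.14). The causes were not tested. With the replicate number as a block, edgeR called 0 genes, with 666 higher and 265 lower at an unadjusted p below 0.05. Same-numbered libraries had a correlation of deviations of 0.2975, but there were only 2 pairs, so the numbers are not taken to pair them. The fit without TG Kupffer replicate 2 and WT MoM replicate 1, also added after seeing the data, called 0 genes, and it leaves 1 TG Kupffer library that is assumed to vary like the other groups. At 0.0359 to 0.0378 CPM per count, genes below 1 CPM rest on few counts.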

Other observations

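Circadian clock genes, which set daily rhythms, included repressors that were lower in both TG libraries. Cry1 had 11.6 and 10.3 CPM in TG and 21.2 and 19.4 CPM in WT (a log2 fold change of -0.89 ± 0.22, adjusted p = 0.730 in edgeR's quasi-likelihood test). Cry2 had 4.23 and 5.71 CPM in TG and 11.1 and 9.63 CPM in WT (-1.06 ± 0.31, adjusted p = 0.730). Per2, a partner of these repressors, had 4.23 and 11.1 CPM in TG and 32.9 and 24.0 CPM in WT (-1.89 ± 0.58, adjusted p = 0.730). Nfil3, a transcription factor that cycles in the opposite phase to some clock outputs, had 128 and 45.6 CPM in TG and 34.3 and 11.3 CPM in WT. Of the 18 clock genes 2 were above and 7 below WT in both TG libraries, against 16.7% and 17.7% of all genes. The list median was 0.15, with 11 of 18 positive, and -0.45 without TG replicate 2, and the labels used here give no time of day. Immediate early and dissociation stress genes summed to 21734 and 21627 CPM in TG and to 24869 and 38684 CPM in WT, so the WT libraries differed from each other more than the TG libraries did.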
